A study of Mus musculus with 9 samples.

Results

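CD4+ T cells labelled as estrogen receptor alpha knockout (ERα KO) were compared with wildtype CD4+ T cells within batch 1 of a mouse RNA sequencing series, 3 knockout libraries against 2 wildtype libraries of the 9 in all. The genes described here were chosen by their level in the other batch: a mean of at least 5 CPM (counts per 1e6 counts of the library) over the 4 batch 2 libraries, which kept 10240 of 39253 listed genes. Of these, 10230 had enough counts to be tested in batch 1 and 10 did not. The threshold fell between Eps8, with a batch 2 mean of 4.999 CPM, and Nr6a1, with 5.001 CPM. Creld1 (4.992 CPM) and Mtln (4.998 CPM) were just below it, and Adgre4 and Cysltr2 (both 5.003 CPM) just above. No batch 1 value entered this choice.

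Every library was made from CD4+ T cells of mice at EAE day 9, where EAE is experimental autoimmune encephalomyelitis, so both genotypes carried the induced disease and no healthy control was part of the comparison. Batch 1 held wildtype replicates 1 and 2 and ERα KO replicates 1, 2 and 3, and batch 2 held wildtype replicates 3 and 4 and ERα KO replicates 4 and 5. By its title the study is about ERα in dendritic cells, whereas the labels name CD4+ T cells as the cells measured. The labels do not give the allele, the cells in which the knockout acts, the strain, the sex, the age or the tissue of origin, nor whether samples were separate animals. The p-values therefore measure the spread between these samples, which may be technical.

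EAE is a model of multiple sclerosis in which myelin-reactive CD4+ T cells are primed in lymphoid organs and then enter the central nervous system. ERα, encoded by Esr1, is a hormone-activated transcription factor that binds estrogen response elements in DNA and also acts through other transcription factors. Estrogens are known to moderate EAE, and ERα in several immune cell types has been studied as a mediator of that effect.

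The targeted gene did not separate the genotypes in batch 1. Esr1 stood at 4.88 CPM in wildtype replicate 1 and 16.3 CPM in wildtype replicate 2, with 9.57, 6.26 and 13.0 CPM in the 3 knockout libraries, so the knockout values lay between the wildtype values. The difference was -0.21 ± 0.47 log2 (SE; edgeR quasi-likelihood test, Benjamini-Hochberg adjusted p = 1). In batch 2 the wildtype mean of Esr1 was 1.56 ± 0.17 CPM (SD, n = 2) and the knockout mean 0.20 ± 0.085 CPM (SD, n = 2). At a batch 2 mean of 0.883 CPM it was not among the genes kept. Every batch 1 value of Esr1 was above those of wildtype replicates 3 and 4 in batch 2, 1.445 and 1.679 CPM. The part of Esr1 that the allele removes is not stated. Batch 1 also carried a background, described next, and its part in the Esr1 values was not tested. These values therefore cannot check the labels fully. Batch 1 directions below refer to libraries labelled knockout and wildtype.

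Batch 1 was the shallower batch and carried a background of genes that T cells do not use. The batch 1 libraries held 4925770 to 11297025 counts each, those of batch 2 held 45012999 to 69844645. Olfactory, vomeronasal and taste receptor genes took 0.0586% and 0.153% of counts in wildtype replicates 1 and 2, and 0.113%, 0.103% and 0.255% in knockout replicates 1, 2 and 3, against at most 0.0037% in batch 2. Within batch 1, Esr1 was lowest where this share was smallest, in wildtype replicate 1 (4.88 CPM). The 2 libraries of largest share, knockout replicate 3 (13.0 CPM) and wildtype replicate 2 (16.3 CPM), had the 2 highest Esr1 values. Between these 2 the order was reversed, with the larger share and the lower Esr1 value in knockout replicate 3. The genes kept held 96.3% and 91.7% of the wildtype counts and 94.0%, 94.2% and 88.1% of the knockout counts. Knockout replicate 3 stood apart from the other batch 1 libraries in another way: Xist, the X inactivation transcript, was at 30.35 CPM there and at 1745 to 2680 CPM in the other 4, while the Y-linked Ddx3y was at 55.4 CPM there and at 0 in the other 4. All 4 batch 2 libraries had Xist at 0 to 0.29 CPM and Ddx3y at 93.6 to 107 CPM, so this difference runs along with batch. Within batch 1 this difference in sex-linked genes lies on the knockout side alone, so it is also unbalanced between the genotypes compared. Its part in differences between batches or genotypes was not tested, apart from the values without knockout replicate 3. Wildtype replicate 1 was closer to knockout replicates 1 and 2 (median absolute log2 difference of 0.167 and 0.163 over the genes kept) than to wildtype replicate 2 (0.247).

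**Figure D1:**
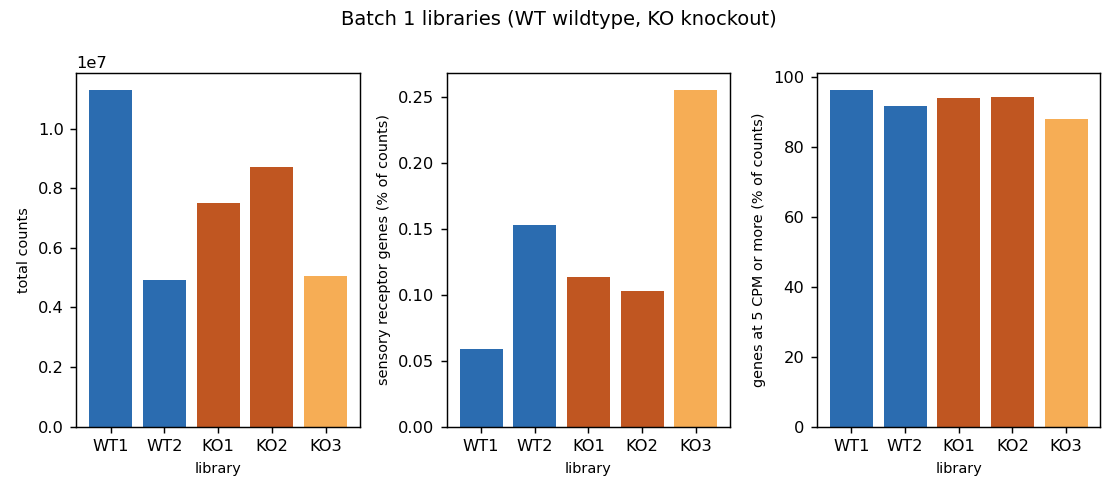
Total counts, percent of counts in sensory receptor genes and percent of counts in the genes kept, 1 bar for each batch 1 library (blue wildtype, brown and orange knockout). Knockout replicate 3 had the highest receptor share, 0.255%, and the lowest share in the genes kept, 88.1%.

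The T cell identity of the libraries was readable from its markers. Cd4, the coreceptor that defines the population, was at 1143 and 1111 CPM in wildtype against at 925, 937 and 1033 CPM in knockout libraries. Cd3e, a signalling chain of the T cell receptor complex, was at 1230 and 1235 CPM in wildtype against at 1071, 1077 and 1079 CPM in knockout libraries. Both were lower in every knockout library than in either wildtype library, but the log2 differences of -0.38 ± 0.36 and -0.34 ± 0.36 (SE) did not pass adjustment (adjusted p = 1 for each). Summed over the 7 CD4 T cell markers in the table, wildtype libraries held 3523 and 3375 CPM and knockout libraries 3039, 3104 and 2939 CPM. Markers of other cells had counts as well, and none of them was at 0 throughout batch 1. With the background of batch 1, 32046 to 34085 of the 39253 listed genes had counts in each library. Counts above 0 therefore cannot show that such cells were present. The 13 neutrophil markers summed to 1235 and 431 CPM in wildtype against 1567, 950 and 1375 CPM in knockout libraries. In batch 2 they summed to 288 and 33.7 CPM in wildtype against 8.56 and 13.3 CPM in knockout libraries. Every batch 1 sum of these markers was thus above every batch 2 sum. The source of these neutrophil marker counts was not tested. The 14 dendritic cell markers summed to 187 and 105 CPM in wildtype against 212, 491.5 and 103 CPM in knockout libraries. Of these 14, only Cd74, the MHC class II invariant chain, was among the genes kept. It alone stood at 130 and 53.2 CPM in wildtype against 146, 364 and 41.6 CPM in knockout libraries. The dendritic cell sum thus largely follows 1 gene and does not measure dendritic cells. In such bulk samples, fewer cells of a type and less RNA per cell cannot be told apart.

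Of the 10230 genes tested, 12 differed between the genotypes at an adjusted p under 0.05: 3 were higher in the knockout (Wls, Naip6 and Rnf157) and 9 were lower (Zfp965, Gm10336, Gm2007, Oasl2, Gm26799, Map7, St6galnac3, Gm16867 and Ppp1r3e). Over all 24600 genes tested in batch 1, 18 were called higher (0.0732%) and 13 lower (0.0528%), so 19 of 31 calls fell on genes below the level rule. At an unadjusted p under 0.05, 35 of the genes kept were higher (0.342%) and 118 lower (1.15%), whereas among all genes tested 329 were higher (1.34%) and 155 lower (0.63%). The split thus ran toward lower values among the genes kept and toward higher values among the rest. The median log2 difference was -0.13 over the genes kept, 0.27 over the 14370 genes below the rule and 0.04 over all. Scaling moved this centre: the median of the genes kept was -0.26 with DESeq2 size factors, -0.05 with upper-quartile scaling and 0.02 when the genes kept alone were fitted, so small differences are read here against the median of the genes kept. With upper-quartile scaling 1 gene was called higher and 4 lower, and with DESeq2 size factors 3 higher and 16 lower. Single libraries moved the count too: it was 23 without knockout replicate 3 (7 higher, 16 lower, 10 of them among the 12) and 21 without wildtype replicate 2 (5 higher, 16 lower, 9 among the 12). Without wildtype replicate 1 it was 25 and the split turned (16 higher, 9 lower, 8 among the 12).

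**Figure D2:**
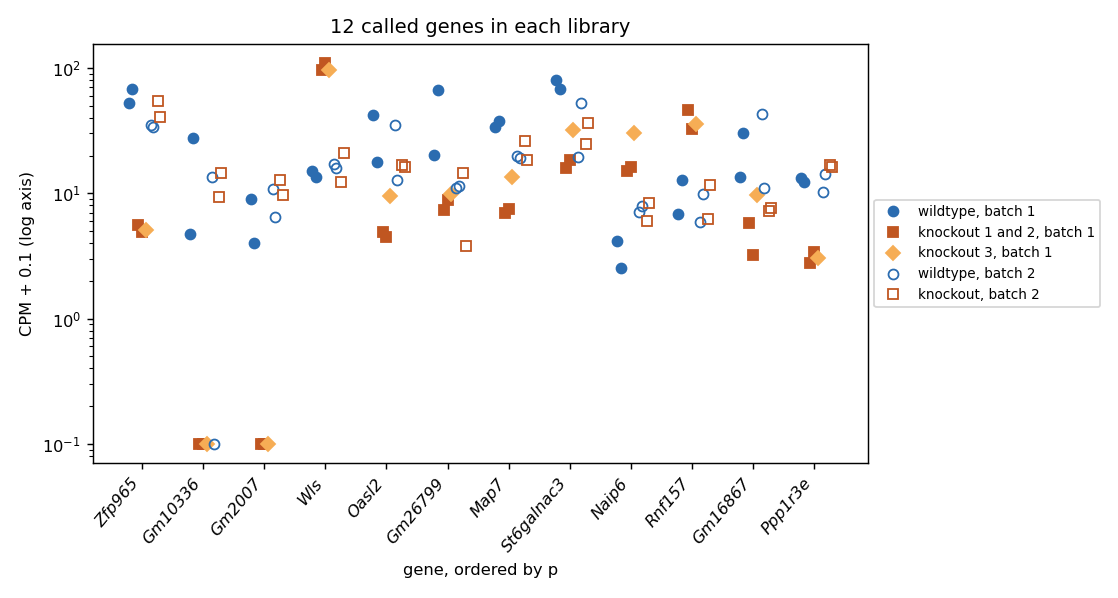
CPM plus 0.1 on a log axis for the 12 genes called in batch 1, 1 point for each library (filled, batch 1; open, batch 2). In batch 1 the 3 knockout points lie all above or all below the 2 wildtype points for each gene; the points at the bottom for Gm10336 and Gm2007 are libraries with 0 counts.

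Wls was the gene with the largest increase among those called. It encodes Wntless, the membrane protein that carries Wnt ligands to the cell surface for secretion. Its level was 15.0 and 13.4 CPM in the wildtype libraries and 95.7, 109 and 96.0 CPM in the knockout libraries, with no overlap and little spread in either group. The difference was 2.66 ± 0.41 log2 (SE; edgeR adjusted p = 8.11e-05), a 7.07-fold ratio of mean CPM. In batch 2 wildtype libraries had 17.1 and 15.9 CPM and knockout libraries 12.2 and 21.0 CPM, close to the batch 1 wildtype values. Of 26 Wnt pathway genes tested, 13 lay below and 13 above the median of the genes kept, and Wls was the 1 that passed adjustment. Tcf7, a transcription factor of naive T cells that responds to Wnt signals, had a log2 difference of -0.57 ± 0.35 and its relative Tcf7l2 of 0.59 ± 0.52 (adjusted p = 1 for both).

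Naip6 and Rnf157 were the other genes called higher. Naip6, a cytosolic receptor of the inflammasome family that senses bacterial flagellin, was at 4.07 and 2.43 CPM in wildtype against 15.1, 16.1 and 30.1 CPM in knockout libraries. That was a difference of 2.36 ± 0.46 log2 (adjusted p = 0.00503), with groups that did not overlap. Rnf157, a RING-type ubiquitin ligase, was at 6.78 and 12.6 CPM in wildtype against 45.7, 32.3 and 35.5 CPM in knockout libraries, again without overlap. Its difference was 1.89 ± 0.40 log2 (adjusted p = 0.0134). In batch 2 all 4 libraries lay between 5.96 and 8.25 CPM for Naip6 and between 5.78 and 11.4 CPM for Rnf157. Both calls were lost with upper-quartile scaling, in the fit of the genes kept alone and in the fit of all 9 libraries. That on Rnf157 was also lost with DESeq2 size factors and without wildtype replicate 1 or knockout replicate 1, and that on Naip6 without wildtype replicate 2 or knockout replicate 3.

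Oasl2 was the called gene among the interferon-induced genes. It encodes an oligoadenylate synthetase-like protein of the antiviral response. Wildtype libraries had 41.7 and 17.5 CPM and knockout libraries 4.78, 4.42 and 9.35 CPM. All knockout values were below both wildtype values, which themselves differed from each other. The difference was -2.55 ± 0.41 log2 (adjusted p = 1.33e-04). The call was lost in 5 of 16 alternatives, among them without wildtype replicate 1, the library with the higher value, and the adjusted p over all alternatives reached 0.39. In batch 2 wildtype replicates 3 and 4 stood at 34.8 and 12.6 CPM and knockout libraries at 16.7 and 16.03 CPM.

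The remaining named genes that fell act in the cytoskeleton, in glycan synthesis and in glycogen metabolism. Map7, a microtubule-binding protein that recruits kinesin, was at 33.5 and 37.9 CPM in wildtype against 6.92, 7.39 and 13.4 CPM in knockout libraries, a difference of -2.15 ± 0.37 log2 (adjusted p = 4.97e-04). St6galnac3, a sialyltransferase that acts on glycolipids and glycoproteins, was at 79.5 and 67.3 CPM in wildtype against 15.9, 18.5 and 31.9 CPM in knockout libraries, a difference of -1.95 ± 0.36 log2 (adjusted p = 0.00161). In both genes knockout replicate 3 was the knockout library nearest to wildtype. Ppp1r3e, a subunit that directs protein phosphatase to glycogen, was at 13.2 and 12.2 CPM in wildtype against 2.69, 3.31 and 2.94 CPM in knockout libraries. Its difference of -2.23 ± 0.50 log2 was the last to pass (adjusted p = 0.0371) and it passed in 7 of 16 alternatives. St6galnac3 and Wls lie on chromosome 3, within 10 of the genes kept from each other, and moved in opposite directions. Map7 lies on chromosome 10, the chromosome of Esr1, 164 places away in the order of annotated genes. It was the 1 called gene among 491 tested there, beside 12 called among all 10230 genes kept and tested. Whether calls were more frequent on that chromosome was not tested.

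Predicted genes made up the rest. Gm10336 was at 4.61 and 27.4 CPM in wildtype, with 0 counts in all knockout libraries of batch 1. With the knockout group set at 3 counts it was at least 81.8-fold lower, and at least 32.7-fold lower against wildtype replicate 1 alone. These bounds cover counting error only. Gm10336 was not matched to an annotated transcript, so sequence that it shares with other genes could not be checked. It was also at 0 in wildtype replicate 4 of batch 2, while wildtype replicate 3 had 13.5 CPM and the knockout libraries 9.19 and 14.4 CPM. Gm26799 was at 20.2 and 66.9 CPM in wildtype against 7.29, 8.80 and 9.82 CPM in knockout libraries, a difference of -2.39 ± 0.38 log2 (adjusted p = 1.50e-04). The call on Gm26799 was lost in 4 of 16 alternatives, among them without wildtype replicate 2, its highest library. Gm16867 was called as well, and 91.1% of its 100-base windows in the annotated transcripts also occur in Gm27177 or Slc25a37, so its counts depend on how reads were divided.

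Zfp965 had the smallest p among the genes kept. The gene encodes a zinc finger protein of a large tandem family on chromosome 2, in which many members are known from annotation only. Wildtype libraries had 52.7 and 68.1 CPM and knockout libraries 5.46, 4.80 and 5.02 CPM, a ratio of means of 11.9 with knockout values that differed little from each other. The log2 difference was -3.68 ± 0.38 (adjusted p = 1.01e-09), and Zfp965 and Wls were the 2 genes called in all 16 alternatives. In batch 2 the direction was the opposite: wildtype libraries had 34.8 and 33.8 CPM and knockout libraries 54.9 and 40.4 CPM, a difference of 0.48 ± 0.18 log2 (unadjusted p = 0.0410, adjusted p = 0.628).

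A second called gene, Gm2007, lies near Zfp965, and the stretch between Gm14391 and Gm14410 was examined for that reason, after its values had been seen. It spans 44 places in the order of annotated genes and holds 11 of the genes kept. All 11 had a lower estimate in the knockout, 2 were called and 5 had an unadjusted p under 0.05, beside 12 calls and a share of 1.496% with an unadjusted p under 0.05 over all 10230 genes kept and tested; since the stretch was picked for its values, these counts only describe it. Gm2007 was at 8.92 and 3.94 CPM in wildtype, with 0 counts in all knockout libraries of batch 1. With the knockout group set at 3 counts it was at least 52.6-fold lower, and at least 28.0-fold lower against wildtype replicate 2 alone. These bounds cover counting error only, not the division of reads among copies. Some other members were low in all 3 knockout libraries too. Gm14391 was at 28.6 and 29.6 CPM in wildtype and at 16.1, 5.09 and 13.4 CPM in the knockout libraries, and Gm14296 at 11.5 and 8.69 CPM in wildtype and at 2.06, 1.74 and 4.59 CPM in the knockout libraries. In others knockout replicate 3 stood closer to wildtype than to knockout replicates 1 and 2. Gm4631 was at 27.6 and 19.7 CPM in wildtype, had 0 counts in knockout replicates 1 and 2, and was at 14.6 CPM in knockout replicate 3. Gm4724 was at 42.2 and 66.2 CPM in wildtype, 6.64 and 7.11 CPM in knockout replicates 1 and 2, and 55.2 CPM in knockout replicate 3. Gm14295 was at 16.3 and 38.4 CPM in wildtype, 5.37 and 3.90 CPM in knockout replicates 1 and 2, and 31.7 CPM in knockout replicate 3. Knockout replicates 1 and 2 were below both wildtype libraries in 10 of the 11 genes each, and knockout replicate 3 in 7. Summed without Zfp965, the stretch held 186 and 204 CPM in wildtype, 34.7 and 23.4 CPM in knockout replicates 1 and 2, and 164 CPM in knockout replicate 3. The sum without Zfp965 was thus low in 2 knockout libraries.

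**Figure D3:**
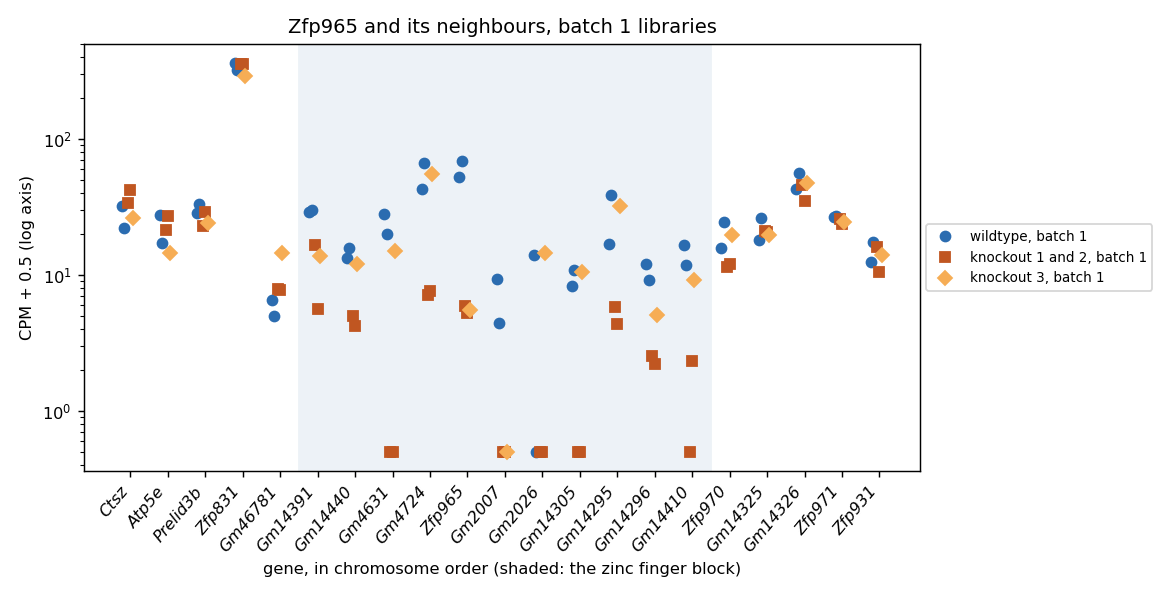
CPM plus 0.5 on a log axis for the 11 genes of the chromosome 2 stretch (shaded) and 5 of the genes kept on each side, 1 point for each batch 1 library. Within the shading knockout replicates 1 and 2 (brown) lie low while knockout replicate 3 (orange) lies with wildtype (blue) for several genes; others, such as Zfp965, Gm2007 and Gm14296, are low in all 3.

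The edges of the stretch were also drawn with the values in view. Among the 5 genes kept on each side the log2 differences ran from -0.65 to 0.60 and the lowest unadjusted p was 0.0887. In batch 2 the sums over all 11 genes were 162 and 200 CPM in wildtype against 233 and 198 CPM in knockout libraries, and 3 of the 11 had a lower estimate in the knockout. Members of this family share sequence: 93.4% of the 100-base windows of Zfp965 and 100% of those of Gm2007 also occur in transcripts of other genes, so their counts depend on how reads were divided among copies.

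The promoters of these genes are alike as well, and they are shown because the genes were low together, with the promoter of Wls as the called gene with the largest increase. Each is a RefSeq window of 300 bases around the annotated start, on the strand of the gene, build GRCm38.p6, which differs from the build named for the deposited counts. The windows are chr2:175469775-175470074 (+) for Zfp965, chr2:175737624-175737923 (+) for Gm2007, chr2:175206875-175207174 (-) for Gm14391 and chr3:159839400-159839699 (+) for Wls. Capitals mark the estrogen half-site GGTCA in the first 3 and the interferon element GAAANNGAAA in Wls.
Zfp965: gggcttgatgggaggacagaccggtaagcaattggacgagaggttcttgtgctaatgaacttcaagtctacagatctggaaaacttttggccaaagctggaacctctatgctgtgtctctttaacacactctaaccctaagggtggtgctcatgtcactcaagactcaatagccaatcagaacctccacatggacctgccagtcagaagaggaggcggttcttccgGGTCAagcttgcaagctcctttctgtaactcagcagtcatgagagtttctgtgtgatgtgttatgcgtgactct
Gm2007: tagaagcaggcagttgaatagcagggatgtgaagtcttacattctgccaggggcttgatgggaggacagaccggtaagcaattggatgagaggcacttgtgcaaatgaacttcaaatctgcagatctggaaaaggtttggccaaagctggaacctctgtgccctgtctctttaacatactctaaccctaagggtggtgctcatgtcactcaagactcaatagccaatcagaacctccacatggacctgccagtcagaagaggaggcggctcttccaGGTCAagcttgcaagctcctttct
Gm14391: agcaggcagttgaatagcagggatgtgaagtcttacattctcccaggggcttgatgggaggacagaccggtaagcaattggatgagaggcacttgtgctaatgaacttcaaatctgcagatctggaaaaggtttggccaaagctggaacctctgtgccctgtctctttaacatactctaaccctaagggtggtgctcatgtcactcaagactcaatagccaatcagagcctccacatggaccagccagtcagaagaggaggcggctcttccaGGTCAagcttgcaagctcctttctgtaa
Wls: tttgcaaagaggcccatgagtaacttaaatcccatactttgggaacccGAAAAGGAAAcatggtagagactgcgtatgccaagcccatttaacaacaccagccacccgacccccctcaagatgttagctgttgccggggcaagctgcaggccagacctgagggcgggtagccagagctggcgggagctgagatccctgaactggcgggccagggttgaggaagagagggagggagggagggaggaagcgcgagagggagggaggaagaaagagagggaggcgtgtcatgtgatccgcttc

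Where their windows overlap in alignment, Zfp965 and Gm2007 were identical at 236 of 250 positions (94.4%) and Gm2007 and Gm14391 at 292 of 296 (98.6%). The motifs were searched on both strands. The full estrogen response element GGTCANNNTGACC occurred in 0 of 9 called genes with a promoter window, in 0 of 8183 windows of the genes kept and in 0.0666% of all 27025 windows. The half-site GGTCA, which is contained in the full element, occurred in 3 of the 9 (Zfp965, Gm2007 and Naip6), against 36.8% of the genes kept and 40.2% of all windows. The interferon element occurred in 1 of the 9, Wls, and not in Oasl2, against 3.21% of the genes kept and 3.49% of all windows. These matches describe letters in 1 window per gene.

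Genes short of the threshold followed. F2rl1, a protease-activated receptor, had the next smallest p: 30.9 and 19.9 CPM in wildtype against 10.4, 10.3 and 8.90 CPM in knockout libraries, with a log2 difference of -1.53 ± 0.38 (adjusted p = 0.114). Pdk1, a kinase that restrains entry of pyruvate into mitochondria, was the most abundant of the following genes, at 229 and 199.6 CPM in wildtype against 112, 89.6 and 111 CPM in knockout libraries (log2 difference -1.21 ± 0.36, adjusted p = 0.604). Exosc6, of the RNA exosome, had a difference of -1.37 ± 0.40 log2 (adjusted p = 0.457) and Gtf2ird1, a transcription factor, of -1.29 ± 0.40 log2 (adjusted p = 0.679). None of these 4 had overlapping groups. The others in order of p were Gm36266, Gm14296, Gm14391, LOC118567338, Gm27177, Gm11695, Bambi-ps1 and LOC68395.

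Groups that did not overlap were about as frequent among the genes kept as over all genes in the upward direction and more frequent in the downward direction; that difference was not tested. All 3 knockout libraries were above both wildtype libraries in 1157 genes kept (11.3%), against 2683 of all genes tested (10.9%). They were below both in 1175 genes kept (11.5%), against 1291 of all genes tested (5.25%).

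Gene lists are described next by counts and medians against the -0.13 median of the genes kept. Of 46 interferon-induced genes 39 lay under the median of the genes kept, with a list median of -0.39, and 8 had an unadjusted p under 0.05, all with lower estimates. Beside Oasl2, which was called, Ifit1, an antiviral RNA-binding protein, stood at 42.3 and 16.1 CPM in wildtype against 13.9, 21.8 and 10.5 CPM in knockout libraries, with overlapping groups (-1.10 ± 0.43 log2, adjusted p = 1). Ifi27l2a showed the same overlap, at 62.4 and 24.1 CPM in wildtype against 22.6, 33.3 and 17.7 CPM in knockout libraries. Ifi206, of a family of DNA-binding proteins and picked after its values were seen, did not overlap, at 319 and 301 CPM in wildtype against 215, 196 and 176 CPM in knockout libraries (-0.80 ± 0.36 log2, unadjusted p = 0.0320). In 9 of the 46 genes all knockout libraries were below both wildtype libraries, against 11.5% of the genes kept and 5.25% of all genes tested. The position of the list depended on single libraries. Without wildtype replicate 1 its median was 0.20 against 0.12 for the genes kept, with 20 of 46 under that median, and without wildtype replicate 2 it was -0.88 against -0.37, with 42 under it. With the receptor share as a covariate 26 of 46 lay under the median of the genes kept, and with a replicate block 28. Summed levels were 6549 and 4464 CPM in wildtype against 5131, 5695 and 3570 CPM in knockout libraries, which overlap. In batch 2 the list median was 0.03. The GTPases induced by interferon gamma lay on the other side in batch 1, with 13 of 18 above the median of the genes kept, a median of 0.12 and 0 called, although without knockout replicate 2 the median was -0.25 and 11 of 18 lay under that of the genes kept.

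Genes of ribosomal proteins, which form the translating ribosome, had the most uniform direction of the 20 lists in the plot of gene lists. Of 80 members 79 had a lower estimate, 74 lay under the median of the genes kept and the list median was -0.39. None was called, and 4 had an unadjusted p under 0.05. Rps6, a protein of the small subunit, was at 87.1 and 110.0 CPM in wildtype against 64.6, 56.3 and 43.6 CPM in knockout libraries (-0.94 ± 0.37 log2, unadjusted p = 0.0126). Rplp0, of the ribosomal stalk, was at 1408 and 1054 CPM in wildtype against 676, 722 and 1145 CPM in knockout libraries, so knockout replicate 3 lay between the wildtype values. In 32 of the 80 genes all knockout libraries were below both wildtype libraries, against 11.5% of the genes kept and 5.25% of all genes tested. Summed levels were 58750 and 69890 CPM in wildtype against 50130, 51820 and 52970 CPM in knockout libraries, without overlap. The list median stayed below that of the genes kept in all 16 alternatives, at -0.44 to -0.14 log2 relative to it, and in batch 2 it was 0.16.

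Energy metabolism and T cell state genes showed smaller shifts and no call. Of 75 oxidative phosphorylation genes 57 lay under the median of the genes kept, with a median of -0.25. In 17 of the 75 all knockout libraries were below both wildtype libraries, against 11.5% of the genes kept and 5.25% of all genes tested. Ndufa6, a subunit of respiratory complex I, had the smallest p of that list (-0.71 ± 0.36 log2, adjusted p = 1). Of 19 genes of naive and quiescent T cells 14 lay under the median of the genes kept, with a median of -0.31. Among them Satb1, a chromatin organiser of T cells, was at 1431 and 1418 CPM in wildtype against 1083, 874 and 914 CPM in knockout libraries (-0.71 ± 0.36 log2, unadjusted p = 0.0523). Of 27 T cell receptor signalling genes 18 did, with a median of -0.25. The early response to receptor engagement had a median of -0.10 over 23 genes, near that of the genes kept. Within it Dusp5, a phosphatase that restrains ERK, was at 109 and 149.6 CPM in wildtype against 76.2, 73.7 and 49.95 CPM in knockout libraries (-1.04 ± 0.37 log2, unadjusted p = 0.00661). Nr4a3, an orphan nuclear receptor induced by receptor signals, was at 169.5 and 248.5 CPM in wildtype against 113.7, 148.8 and 84.8 CPM in knockout libraries (-0.93 ± 0.37 log2, unadjusted p = 0.0157).

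Beside the interferon gamma GTPases, the lists of regulatory T cell, MHC class I and Th1 genes had the highest medians of the 20 lists. Of 20 regulatory T cell genes 17 lay above the median of the genes kept, with a median of 0.21, and none was called. Foxp3, the transcription factor that defines these cells, was at 138 and 170.4 CPM in wildtype against 149, 280.4 and 142 CPM in knockout libraries, high in knockout replicate 2 alone. Without that library the list median was -0.13 against -0.18 for the genes kept, with 8 of 20 under it. Of 18 antigen presentation genes of MHC class I 14 lay above the median of the genes kept, with a median of 0.11 and none called; with DESeq2 size factors, which shift all genes, 4 of the 18 again lay under that median. H2-Q6, a nonclassical class I gene, was at 215 and 169 CPM in wildtype against 426, 562 and 308 CPM in knockout libraries, a difference of 1.04 ± 0.39 log2 that did not pass adjustment (unadjusted p = 0.0105, adjusted p = 1). Its neighbour H2-Q7 had a difference of 0.72 ± 0.39 log2. H2-Q5 and H2-Q4, picked after their values were seen, had differences of 0.78 ± 0.39 and -0.07 ± 0.37 log2. LOC68395, an H2-Q6-like gene named above, had a difference of 1.28 ± 0.39 log2 (edgeR adjusted p = 0.702). Of the 100-base windows, 10.8% in H2-Q6 and 11.98% in H2-Q7 also occur in transcripts of other genes, paralogs among them. In 15 Th1 genes the median was 0.09, and in batch 2 it was -0.51. Of the 15, 5 lay under the median of the genes kept in batch 1, 7 without knockout replicate 3 and 4 without wildtype replicate 1. Ccl5, a chemokine of effector T cells, was at 22.8 and 45.1 CPM in wildtype against 41.1, 106 and 64.4 CPM in knockout libraries (0.99 ± 0.40 log2, unadjusted p = 0.0159). Eomes, a transcription factor of effector cells, was at 9.10 and 8.90 CPM in wildtype against 11.97, 24.2 and 21.1 CPM in knockout libraries (0.92 ± 0.41 log2, unadjusted p = 0.0289).

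The helper T cell genes fixed for reporting did not pass adjustment. Tbx21, the Th1 master regulator, was at 24.2 and 15.0 CPM in wildtype against 30.3, 32.3 and 34.6 CPM in knockout libraries (0.52 ± 0.37 log2). Ifng, the Th1 cytokine, was at 21.3 and 20.5 CPM in wildtype against 17.8, 23.4 and 6.83 CPM in knockout libraries (-0.45 ± 0.42 log2). Il2ra, the high-affinity interleukin receptor chain of activated and regulatory T cells, had a difference of -0.36 ± 0.38 log2. The adjusted p was 1 for each of them, and the groups overlapped for all but Tbx21. Il17a was under the level rule, at a batch 2 mean of 1.03 CPM. Genes known to respond to estrogen gave no call either: of 11 kept, 6 lay under the median of the genes kept and their median of -0.13 was close to that of the genes kept. Nrip1, an ERα target and corepressor, was at 318 and 323 CPM in wildtype against 250.6, 260.9 and 228 CPM in knockout libraries (-0.51 ± 0.36 log2, adjusted p = 1). Of 20 ERα coregulators 16 lay under the median of the genes kept, with a median of -0.20. With 1 library left out, 12 to 15 of the 20 lay under it, and 12 did so without knockout replicate 3. In batch 2 the median of these coregulators was 0.06.

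**Figure D4:**
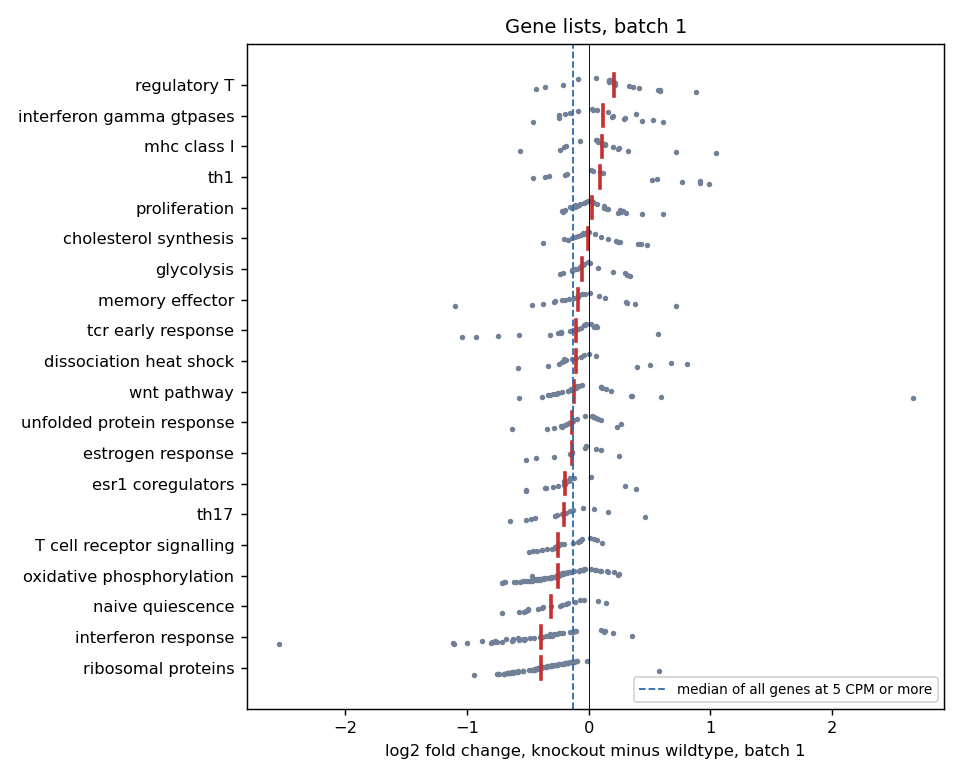
Log2 difference, knockout minus wildtype in batch 1, for each gene kept (grey points) of 20 lists, with the list median (red bar), the median of all genes kept (dashed line, -0.13) and 0 (thin line). Ribosomal protein and interferon-induced genes have the lowest medians, both -0.39, and the regulatory T cell list the highest, 0.21.

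The genotype differences called in batch 1 were not called in batch 2. Of the 10239 genes kept that could be tested there, 0 passed adjustment with edgeR, 868 had an unadjusted p under 0.05 and DESeq2 called 267; over all 15910 genes tested in batch 2, 7.77% had an unadjusted p under 0.05. All 12 genes called in batch 1 were tested in batch 2: 6 had the same sign, their log2 differences ran from -1.88 to 0.76, and 1 had an unadjusted p under 0.05, Zfp965, in the opposite direction. Over the genes kept, 4541 of 10229 (44.4%) had the same sign in both batches. The difference of the genotype effect between batches was tested as an interaction over all 9 libraries. It passed adjustment for 1 gene of 27452 (0.00364%), Zfp965, at 4.16 log2 (batch 2 minus batch 1; adjusted p = 0.0043). That call was lost without wildtype replicate 1 and without wildtype replicate 2. At an unadjusted p under 0.05 the interaction held for 337 of the 10240 genes kept, against 2314 of all 27452 genes tested. It held for 10 of the 12 called in batch 1, among them Wls (-2.65 log2, unadjusted p = 1.09e-04) and Map7 (2.35 log2, unadjusted p = 6.86e-05). The exceptions were Gm10336 and Gm16867. These 12 were called on their batch 1 difference, which is also part of the interaction, so the count of 10 only describes them. For the 11 called genes other than Zfp965, no difference between the batches passed adjustment.

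**Figure D5:**
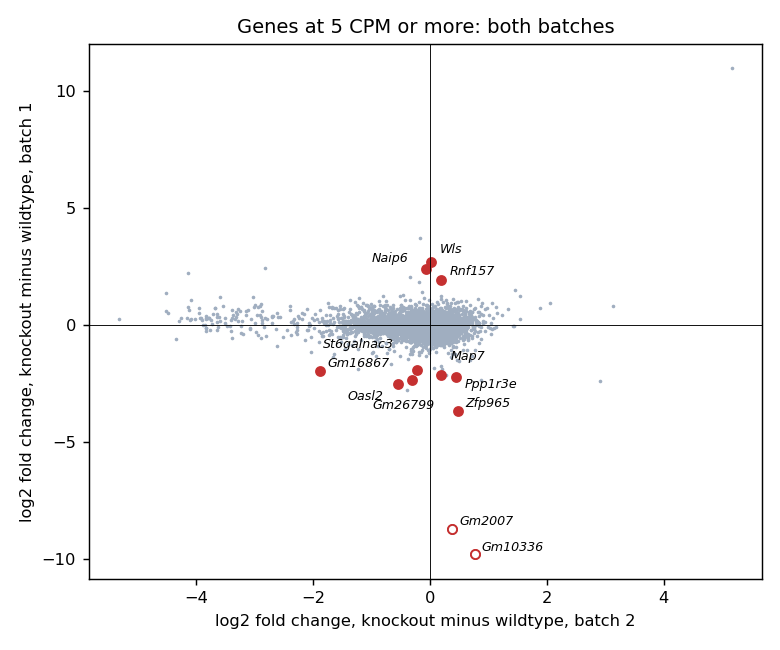
Log2 difference, knockout minus wildtype, in batch 2 (horizontal axis) and batch 1 (vertical axis) for the genes kept, with the 12 genes called in batch 1 in red. Open circles mark Gm2007 and Gm10336, whose fitted values rest on 0 counts in the knockout and are not estimates of size; the other called genes, except Gm16867, lie between -0.55 and 0.48 log2 in batch 2.

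Genes that moved the same way in both batches at the unadjusted level were few. An unadjusted p under 0.05 (edgeR) was found for 153 of the genes kept in batch 1, for 868 in batch 2 and for 24 in both. The direction was shared by 9 of the 24 and was opposite in the others, which were the larger part. Whether 24 exceeds what the counts of the single batches would give was not tested. The 9 were Dusp5, Nr4a3, Nr1d1 and Srgap3 with lower estimates, and Arrdc4, Chic1, Mtus1, F830016B08Rik and Bmpr1a with higher ones. Dusp5 had differences of -1.04 log2 in batch 1 and -0.70 log2 in batch 2, and Nr4a3 of -0.93 and -0.81 log2. Arrdc4, an arrestin-domain protein that limits glucose uptake, had 1.46 log2 in each. Their adjusted p in batch 1 was 1, and these genes were picked after their values were seen.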

How the data were processed

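The values are estimated counts that the authors made from the reads and deposited as 1 table of 39253 genes, per the file headers. The submitters' processing notes list Salmon 1.2.0, R 4.0.3 and GRCm39, with no role for each. Strand setting, annotation release and length scaling: not given in the sources used here. If values were scaled by length, counts, CPM and the floor of 3 counts would shift by gene. Values were rounded to whole numbers, and CPM is the count divided by the library total. Batch 1 was tested with edgeR 4.0.16 in R 4.3.3 (robust quasi-likelihood test, TMM scaling, minimum count 10 and minimum total 15, threshold 0.05) over all genes tested, with no covariate, and batch 2 and the interaction in the same way. SE was derived from the F statistic. The scripts were checked on simulated data. No libraries of a group agreed within sampling noise (chi-square per degree of freedom 7.06 to 31.6 in batch 1). The depth sets a floor of 0.266 to 0.609 CPM for 3 counts in batch 1, for counting error only. Fitted folds of genes with 0 counts in a group are not given.

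Deviations of same-numbered libraries from their group means had r = 0.21 for replicates 1 and -0.23 for replicates 2. With 2 wildtype libraries these deviations are equal and opposite, and the crossed pairs gave 0.23 and -0.21. The r values therefore cannot show whether numbers pair samples, and nothing in the labels says that they do. Genes named are Esr1, the genes called (predicted genes with values if among the 10 smallest p), the next by p up to 24, up to 3 per list, 8 fixed T cell genes (1 is not reported here) and 3 on each side of the threshold; others are said to be picked after their values were seen. Genes, lists and tests were chosen with earlier results of these data known. Gene order was read from RefSeq (GRCm38), shared windows from GENCODE transcripts. Alternatives were other scalings, filters and tools (DESeq2 1.42.0, limma 3.58.1), a receptor-share covariate, a replicate block, other level rules and leaving out libraries; the crossed block and the omission of 2 libraries were added after seeing the data.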

Additional observations from a re-analysis of the deposited data

Results flagged for a closer look

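The genotype difference of Zfp965 was not the same in the 2 batches. The interaction was 4.16 log2 (batch 2 minus batch 1), with -3.68 log2 in batch 1 and 0.48 log2 in batch 2.

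Single libraries stood apart from the other 4 of batch 1 in 3 of 34 summed levels and library measures examined, where chance alone marks about 1 in 20. The ERα coregulator list summed to 6016 CPM in knockout replicate 3 and to 7541 to 8049 CPM in the others. The dendritic cell markers summed to 491.5 CPM in knockout replicate 2 and to 103 to 212 CPM in the others. Cd74 alone held 364 CPM of the sum in knockout replicate 2. The natural killer cell markers summed to 100.5 CPM in knockout replicate 3 and to 82.7 to 87.2 CPM in the others. The part of these libraries in the gene differences was not tested, apart from the values without each library.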

How the results depend on the processing

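Of the 12 genes called in batch 1, Zfp965 and Wls were called in all 16 alternatives, Map7 in 15, Gm2007 in 14, Gm10336 in 13, Gm26799 and St6galnac3 in 12, Oasl2 and Naip6 in 11, Rnf157 and Gm16867 in 10 and Ppp1r3e in 7, and no estimate of these changed sign. The number of genes kept that were called, 12, became 19 with DESeq2 size factors, 5 with upper-quartile scaling, 20 with no low-count filter, 2 when the genes kept alone were fitted (Wls and Zfp965), 26 with limma-voom, 4 in a fit of all 9 libraries and 60 with the receptor share as a covariate. It was 9 to 25 when 1 library was left out (25 without wildtype replicate 1, 21 without wildtype replicate 2, 23 without knockout replicate 3). Without the 2 libraries of highest receptor share (wildtype replicate 2 and knockout replicate 3, chosen after seeing the data) it was 901, with the spread of the single wildtype library taken from the knockout libraries. With a replicate block it was 29, of which 11 were among the 12, and with the numbers crossed 31; the labels do not show that the numbers pair samples. In batch 2 the 0 calls of edgeR became 267 with DESeq2 and 0 to 729 with 1 library left out. The interaction's 1 call became 2 with DESeq2 size factors, 54 with DESeq2 and 0 to 147 with 1 library left out (0 without wildtype replicate 1, 147 without wildtype replicate 4). Of 90 named genes that were not called, 26 changed sign in at least 1 alternative. The causes were not tested. The median SE in batch 1 was 0.37 log2, with a spread between libraries beyond counting error.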

Other observations

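Mid1, picked after its values were seen, had its high values in different genotypes in the 2 batches. It encodes a microtubule-associated ubiquitin ligase and is X-linked. In batch 1 it stood at 424 CPM in wildtype replicate 1, 77.3 CPM in wildtype replicate 2 and 56.5, 53.4 and 56.4 CPM in the knockout libraries. In batch 2 it stood at 54.9 and 54.0 CPM in wildtype against at 330.4 and 484 CPM in knockout libraries. The log2 differences were -2.43 in batch 1 and 2.91 in batch 2, and neither passed adjustment (adjusted p = 1 and 0.345).

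Asns, asparagine synthetase, also picked after its values were seen, was at 3.18 and 0.718 CPM in wildtype against at 14.7 and 19.8 CPM in knockout replicates 1 and 2, with 3.08 CPM in knockout replicate 3. In batch 2 its high value, 39.0 CPM, was in wildtype replicate 3, with 2.72 to 4.67 CPM in the other 3 libraries.

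Proliferation genes changed side with 1 library left out. Of 28 genes, 5 lay under the median of the genes kept in batch 1, 1 without wildtype replicate 1 and 22 without wildtype replicate 2. Their summed level was 1595 and 878 CPM in the wildtype libraries and 1165, 1699 and 1101 CPM in the knockout libraries.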
